A study of Mus musculus with 19 samples.

Results

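The 10 MAP kinase phosphatase genes Dusp1, Dusp2, Dusp4, Dusp5, Dusp6, Dusp7, Dusp8, Dusp10, Dusp14 and Dusp16 were followed in RNA sequencing of mouse cerebral cortex. They were taken by name, with their mouse symbols mapped to Ensembl identifiers, from the 55487 genes of the deposited tables, and all 10 were among the 19105 genes with enough reads to test. The 10 lemborexant libraries came from male P301S/E4 mice gavaged each day with 30 mg/kg of lemborexant, a dual orexin receptor antagonist, at zeitgeber time 13 from 7.5 to 9.5 months of age. The 9 vehicle libraries came from male P301S/E4 mice given 0.5% methylcellulose on the same schedule. All animals were 41 weeks old, and P301S/E4, a tauopathy background named for a mutation of human tau and for apolipoprotein E4, is shared by both groups. No library of a mouse without this background was compared, and the labels do not state whether each library is a different mouse, so the p-values speak only of variation among libraries, which may be technical.

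MAP kinases are switched on by phosphorylation of a threonine and a tyrosine, and the dual-specificity MAP kinase phosphatases remove both phosphates. Several of their genes are themselves transcribed in response to MAP kinase signalling, so that the phosphatase closes a negative feedback loop. In neurons, synaptic activity that drives ERK signalling also induces several of them, among them Dusp1, Dusp4, Dusp5 and Dusp6. Dusp1, Dusp2, Dusp4 and Dusp5 encode nuclear enzymes, of which the Dusp5 enzyme is selective for ERK. Dusp6 and Dusp7 encode cytoplasmic enzymes that are selective for ERK. Dusp8, Dusp10 and Dusp16 encode enzymes that prefer JNK and p38, the stress-activated kinases. Dusp14 encodes a small atypical phosphatase without the domain by which the others bind MAP kinases.

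The RefSeq promoter table for GRCm38.p6 held 9 of the 10 genes, as 250 bases before and 50 bases after the start site. The promoters of 4 genes are shown, those of the 3 genes with the smallest p between treatments, Dusp5, Dusp10 and Dusp16, and that of Dusp8, the gene with the highest level. They lie on the plus strand at chr19:53528895-53529194 (Dusp5) and chr1:184034131-184034430 (Dusp10), and on the minus strand at chr6:134792579-134792878 (Dusp16) and chr7:142095235-142095534 (Dusp8). All run 5′ to 3′, and capitals mark matches to the motifs searched on both strands.
Dusp5: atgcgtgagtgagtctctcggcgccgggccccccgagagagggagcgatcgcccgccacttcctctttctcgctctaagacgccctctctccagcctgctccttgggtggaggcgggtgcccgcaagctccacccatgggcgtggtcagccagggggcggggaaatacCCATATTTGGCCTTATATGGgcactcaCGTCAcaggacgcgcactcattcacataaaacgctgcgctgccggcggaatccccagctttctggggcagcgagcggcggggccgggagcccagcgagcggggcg
Dusp10: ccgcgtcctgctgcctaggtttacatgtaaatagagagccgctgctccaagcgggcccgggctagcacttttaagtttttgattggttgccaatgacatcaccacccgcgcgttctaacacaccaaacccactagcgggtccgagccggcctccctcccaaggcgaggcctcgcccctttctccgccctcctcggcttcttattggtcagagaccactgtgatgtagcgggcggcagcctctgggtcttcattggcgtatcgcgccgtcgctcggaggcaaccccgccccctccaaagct
Dusp16: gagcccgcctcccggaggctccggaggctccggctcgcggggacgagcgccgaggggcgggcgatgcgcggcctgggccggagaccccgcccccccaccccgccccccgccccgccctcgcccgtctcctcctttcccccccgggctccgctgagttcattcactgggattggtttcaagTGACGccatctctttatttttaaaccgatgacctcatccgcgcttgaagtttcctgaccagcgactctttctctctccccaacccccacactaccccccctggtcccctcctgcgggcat
Dusp8: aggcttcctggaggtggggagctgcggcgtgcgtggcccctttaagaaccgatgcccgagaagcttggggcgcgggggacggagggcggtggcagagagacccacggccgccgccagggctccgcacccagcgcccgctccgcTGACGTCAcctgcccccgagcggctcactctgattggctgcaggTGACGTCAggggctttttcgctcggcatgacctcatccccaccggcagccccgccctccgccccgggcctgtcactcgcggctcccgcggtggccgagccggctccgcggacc

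The motifs searched were the cAMP response element TGACGTCA, its core TGACG, the AP-1 site TGANTCA, the ETS site CCGGAAG, the EGR site GCGGGGGCG and the CArG box bound by serum response factor, and the full cAMP response element contains its core. The capitals in the Dusp5 promoter are 2 adjoining CArG boxes, which start 82 and 72 bases before the start site, and a core cAMP response element that starts 55 bases before it. CArG boxes were present in 1.63% of 32841 promoters of the same length and in no other of the 9. The Dusp8 promoter held 2 full cAMP response elements, starting 107 and 63 bases before the start site, and the Dusp1 promoter held 1, which starts 143 bases before it. This element was present in 1.79% of all promoters. Its core was in 20.8% of all promoters and in 5 of the 9, those of Dusp1, Dusp2, Dusp5, Dusp8 and Dusp16, of which Dusp16 had it 70 bases before the start site. The EGR site was in 2.91% of all promoters and in that of Dusp2. The AP-1 and ETS sites, in 7.81% and 8.86% of all promoters, had no match in the 9. No motif searched was found in the Dusp10 window. That window lies inside the GENCODE model of Dusp10, which starts at chr1:184013302. The Dusp1 window, chr17:26508423-26508722, likewise lies inside a minus-strand model that ends at chr17:26562128. The starts of these 2 models were not searched. A match describes letters, and no binding was measured here.

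Estimated reads on genes numbered 20185098 to 31795633 per library. Among 171 pairs of libraries, 3 pairs of lemborexant libraries were nearly alike, namely 1 and 10, 3 and 8, and 4 and 9. Their chi-square per degree of freedom was 3.08 to 3.66, against 12.2 to 274 in the other 168 pairs. They differed by more than counting error, which does not show that they come from different mice, and the labels do not say. If they are repeats, the tests, SEs and SDs on 19 libraries count too many lemborexant samples. They were kept as separate libraries in the main fit, which called 498 of all genes, against 0 with the pairs summed. The log2 change of each member is therefore also given with the pairs summed, which leaves 16 units (7 lemborexant, 9 vehicle). Cst7, a gene of reactive microglia, was below 1 CPM (read counts scaled to library size, with TMM factors) in lemborexant 1 and 10 and vehicle 1 and 4, and at 16.4 to 144 CPM in the other 15 libraries. All 7 markers of cortical excitatory neurons were detected and tested, with summed levels of 200.9 to 437.9 CPM in lemborexant libraries and 319.8 to 458 CPM in vehicle libraries. The summed level of 10 hippocampal markers was 59.5 to 241.2 CPM in lemborexant libraries and 228.9 to 385.2 CPM in vehicle libraries, with lemborexant 1 and 10 inside the vehicle range. All 10 had a negative log2 change and 2, C1ql2 and Pkp2, fell past the threshold (edgeR adjusted p = 0.0441 and 0.0376). Of the cortical markers 1 rose (Rorb) and 1 fell (Neurod2). The 10 thalamic markers summed to 150.1 to 584.9 CPM in lemborexant libraries and 113.5 to 194.8 CPM in vehicle libraries, and all 10 had a positive log2 change (median 0.94), of which 3 rose past the threshold. Striatal markers summed to 136.4 to 463.5 CPM in lemborexant libraries and 116.2 to 154.2 CPM in vehicle libraries, and 1 of 12 tested rose. Meningeal markers (median log2 change 0.91) and choroid plexus markers (0.61) had 0 called, and the choroid plexus markers summed to between 31.3 and 10540 CPM over the 19 libraries. Hypothalamic markers summed to 2516 CPM in lemborexant 7 and to between 0.742 and 19.3 CPM in the other 18 libraries, with 3 of 3 tested called higher, and hepatocyte markers, with 4 of 4 tested called lower, summed to 1143 CPM in vehicle 7 and to at most 44.2 CPM in the other 18. The part of these marker levels in the results that follow was not tested. For the hippocampal markers a fit with a covariate is given, which cannot separate them from treatment.

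The first comparison asked which of the phosphatase transcripts differ after daily orexin receptor blockade. None of the 10 passed the threshold with all 19 libraries counted separately. Dusp5 was the nearest to it, at 1.95-fold lower in lemborexant libraries, and Dusp6 was 1.36-fold lower, while Dusp10 and Dusp16 were 1.39-fold and 1.40-fold higher. By edgeR's quasi-likelihood test, 0 of 10 members passed at an adjusted p under 0.05, where 2.61% of all tested genes did (0.953% higher and 1.65% lower after lemborexant). At an unadjusted p under 0.05 there were 5, Dusp5, Dusp6, Dusp7, Dusp10 and Dusp16, against 25.7% of all genes. DESeq2 passed 2 of 10 (Dusp5 and Dusp10), where it called 8.68% of all genes, and limma's voom passed 1 of 10 (Dusp5), where it called 11.8%. Of the 10 log2 changes, 6 were negative and 4 positive, with a median of -0.22, and the median over all tested genes was 0.03. With the pairs summed 0 of 10 passed, as did 0% of all genes, and 7 (Dusp1 and Dusp4 besides the 5) had an unadjusted p under 0.05, against 21.3% of all genes. The treatment groups overlapped for each of the 10, as they did for all but 0.194% of genes.

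**Figure D1:**
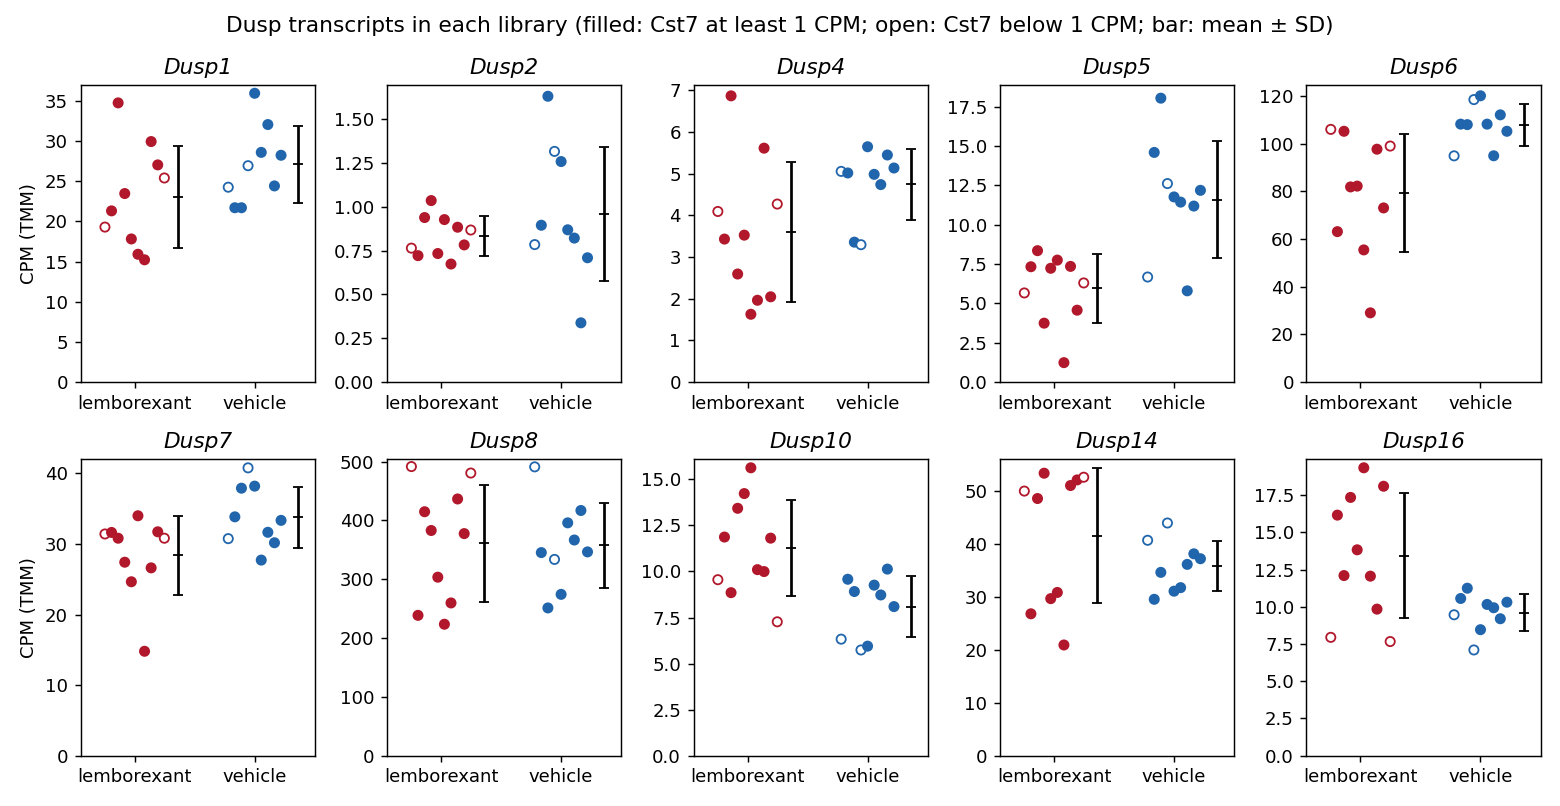
Each panel plots one Dusp transcript in CPM with TMM factors, with a point for each of 10 lemborexant (red) and 9 vehicle (blue) libraries, and the bar gives the mean ± SD. Open points are libraries with Cst7 below 1 CPM. The groups overlap in every panel, and the vehicle libraries lie higher for most points in Dusp5 and Dusp6.

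Dusp5 (ENSMUSG00000034765, chr19:53529109-53542431 in GRCm38, plus strand) encodes the nuclear phosphatase that is selective for ERK. Its level was 1.23 to 8.34 CPM with a median of 6.76 in lemborexant libraries, and 5.79 to 18.0 CPM with a median of 11.8 in vehicle libraries. The 7 vehicle libraries at 11.2 CPM or above were higher than every lemborexant library, and vehicle 1 and 7, at 6.67 and 5.79 CPM, lay within the lemborexant range. The means were 5.95 ± 2.21 CPM (SD, n = 10) and 11.6 ± 3.71 CPM (SD, n = 9) for lemborexant and vehicle. The log2 change was -0.96 ± 0.26 (SE; 95% interval -1.51 to -0.42), just outside the threshold (edgeR adjusted p = 0.0522). With the nearly alike pairs summed it was -0.98 (adjusted p = 0.116). The call turned on single libraries, since the adjusted p was 0.0312 to 0.0458 without lemborexant 6, lemborexant 7, vehicle 1, vehicle 7 or vehicle 8, and up to 0.0952 without one of the other 14. In the 5 fits that called it, 1.57% to 6.62% of all genes were called. With the pairs summed it passed in 0 of the 16 fits without 1 unit (adjusted p = 0.0834 to 0.227).

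The other 3 nuclear phosphatases had negative log2 changes of smaller size, none past the threshold. Dusp1 (chr17:26505590-26562128), the classic immediate early member that acts on p38, JNK and ERK, was at 15.2 to 34.8 CPM with a median of 22.4 in lemborexant libraries and at 21.7 to 36.0 CPM with a median of 27.0 in vehicle libraries. Its log2 change was -0.24 ± 0.15 (SE; edgeR adjusted p = 0.31), or -0.34 with the pairs summed (adjusted p = 0.218). The GENCODE model of Dusp1 overlaps Ergic1 on the opposite strand, which had a mean of 3105 estimated reads per library against 648 for Dusp1. Whether the counting used strand is not given in the sources used here, and the Dusp1 values are uncertain for that reason. The overlapping genes of the other members had at most 2.26 reads on average.

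Dusp4 (chr8:34807297-34819894), which acts on ERK and JNK, was at 1.62 to 6.86 CPM with a median of 3.47 in lemborexant libraries and at 3.29 to 5.64 CPM with a median of 5.01 in vehicle libraries. Lemborexant libraries lay both below and above the whole vehicle range. The log2 change of Dusp4 was -0.40 ± 0.23 (SE; edgeR adjusted p = 0.281), or -0.51 with the pairs summed (adjusted p = 0.228). Dusp2 (chr2:127336159-127338376), best known from activated lymphocytes, was the lowest member at 0.674 to 1.04 CPM in lemborexant libraries and 0.338 to 1.63 CPM in vehicle libraries, with medians of 0.825 and 0.869 CPM for lemborexant and vehicle. The 10 lemborexant values all lay within the vehicle range, and the log2 change of Dusp2 was -0.20 ± 0.22 (SE; edgeR adjusted p = 0.58), or -0.23 with the pairs summed (adjusted p = 0.601).

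Dusp6 (ENSMUSG00000019960, chr10:99263231-99267489, plus strand) encodes the cytoplasmic phosphatase that binds and restrains ERK. It was at 29.0 to 106.0 CPM with a median of 82.0 in lemborexant libraries, and at 94.9 to 120.1 CPM with a median of 108.2 in vehicle libraries. In 6 of the 9 vehicle libraries Dusp6 was higher than in every lemborexant library, and lemborexant 1, 3, 8 and 10 lay within the vehicle range. That count depends on the TMM factors. Without them only vehicle 8, at 113.6 CPM, was above every lemborexant library, of which lemborexant 3 was highest at 109.1 CPM. In TPM, a level scaled to gene length, the highest lemborexant library was at 67.0 and the highest vehicle library at 66.6. The SD of Dusp6 was 24.8 CPM among lemborexant libraries and 8.82 CPM among vehicle libraries. The log2 change was -0.44 ± 0.17 (SE; 95% interval -0.80 to -0.09), which did not pass (edgeR adjusted p = 0.114), and with the pairs summed it was -0.57 (adjusted p = 0.127).

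Dusp7 (chr9:106368632-106375724), the close relative of Dusp6, was at 14.8 to 34.0 CPM with a median of 30.8 in lemborexant libraries, and at 27.7 to 40.8 CPM with a median of 33.3 in vehicle libraries. Only lemborexant 4, 5, 7 and 8 were below the lowest vehicle library, and no lemborexant library reached the highest 3 vehicle libraries. Both statements depend on the TMM factors. Without them lemborexant 4, at 29.11 CPM, was above the lowest vehicle library at 27.68 CPM. Lemborexant 2, at 34.48 CPM, was then below only vehicle 4 at 34.98 CPM. In TPM lemborexant 1, 2 and 10, at 24.66 to 28.07, were above the highest vehicle library at 24.46. The log2 change of Dusp7 was -0.25 ± 0.12 (SE; edgeR adjusted p = 0.188), or -0.29 with the pairs summed (adjusted p = 0.226). In CPM with TMM factors, lemborexant 7 had the lowest level of all 19 libraries for Dusp1, Dusp5, Dusp6, Dusp7 and Dusp14. For Dusp5, Dusp6 and Dusp7 it was also lowest without the factors and in TPM. For Dusp1 lemborexant 6 was lowest in both of these measures, and for Dusp14 vehicle 5 was lowest in TPM. Without lemborexant 7 and vehicle 7, Dusp5 passed the threshold with a log2 change of -0.93 (edgeR adjusted p = 0.0273, where 1.61% of genes were called), and none of the other 9 passed.

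Of the phosphatases that prefer JNK and p38, Dusp10 and Dusp16 were higher on average in lemborexant libraries and the mean of Dusp8 was 360.9 CPM in lemborexant and 357.9 CPM in vehicle libraries. Dusp10 (ENSMUSG00000039384, chr1:184013302-184075636, plus strand) was at 7.27 to 15.6 CPM with a median of 10.96 in lemborexant libraries, and at 5.74 to 10.1 CPM with a median of 8.73 in vehicle libraries. In 5 lemborexant libraries (2, 4, 5, 6 and 9) it was above every vehicle library, and the other 5 lay within the vehicle range. The log2 change of Dusp10 was 0.48 ± 0.15 (SE; 95% interval 0.17 to 0.79; edgeR adjusted p = 0.071), or 0.54 with the pairs summed (adjusted p = 0.101). It passed without lemborexant 10 or without vehicle 8 (adjusted p = 0.0393 and 0.0459), where 3.31% and 6.62% of genes were called. With the pairs summed it passed without the unit of lemborexant 1 and 10 (0.0388, where 4.22% of genes were called) and not without vehicle 8 (0.0806).

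Dusp16 (ENSMUSG00000030203, chr6:134715468-134792625, minus strand), which shuttles between nucleus and cytoplasm, was at 7.67 to 19.3 CPM with a median of 12.96 in lemborexant libraries, and at 7.10 to 11.3 CPM with a median of 9.94 in vehicle libraries. In 7 of the 10 lemborexant libraries it was above every vehicle library, and the exceptions were lemborexant 1, 8 and 10. The log2 change of Dusp16 was 0.48 ± 0.16 (SE; 95% interval 0.14 to 0.83; edgeR adjusted p = 0.0891), or 0.54 with the pairs summed (adjusted p = 0.103). With the libraries below 1 CPM of Cst7 left out it passed, at 0.57 ± 0.13 (SE; adjusted p = 0.0365, where 2.71% of genes were called), and it also passed without lemborexant 10 (adjusted p = 0.0478). Leaving out the libraries low in Cst7 with the pairs summed gave 0.58 and no call (adjusted p = 0.0658, with 0 genes called). With the pairs summed and the unit of lemborexant 1 and 10 left out, Dusp16 passed (0.0264) and so did Dusp6 (0.0493).

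Dusp8 (ENSMUSG00000037887, chr7:142079490-142095843, minus strand), a JNK and p38 phosphatase known for its expression in brain, was at 223.5 to 491.6 CPM with a median of 380.2 in lemborexant libraries, and at 251.2 to 491.1 CPM with a median of 346.5 in vehicle libraries. The ranges nearly coincided. The log2 change of Dusp8 was 0.01 ± 0.16 (SE; edgeR adjusted p = 0.971), with a 95% interval of -0.32 to 0.34, and it was -0.11 with the pairs summed (adjusted p = 0.728). The atypical Dusp14 (chr11:84048041-84069261) was at 20.9 to 53.4 CPM with a median of 49.4 in lemborexant libraries, and at 29.6 to 44.0 CPM with a median of 36.2 in vehicle libraries. All 9 vehicle values of Dusp14 lay within the lemborexant range, and its log2 change was 0.21 ± 0.16 (SE; edgeR adjusted p = 0.414), or 0.06 with the pairs summed (adjusted p = 0.851).

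The lemborexant values of Dusp8 and Dusp14 fell into separate ranges, and these follow the nearly alike pairs. Dusp14 was at 48.7 to 53.4 CPM in the 6 libraries of the pairs, and the 4 unpaired lemborexant libraries had 20.9 to 30.9 CPM. Dusp8 was at 377.6 to 491.6 CPM in the 6 and at 223.5 to 303.5 CPM in the unpaired 4. The other 8 members overlapped between these libraries, where 8.64% of all genes did not. The 6 libraries form 3 nearly alike pairs, so they are not 6 separate values if the pairs are repeats. Cst7 also differed in this division, with a mean of 18.3 CPM in the 6 and 77.8 CPM in the unpaired 4. Its ranges overlapped, at 0.115 to 38.5 and 23.2 to 130.9 CPM. The summed cortical excitatory markers did not overlap, at 425 to 437.9 CPM in the 6 and 200.9 to 356.6 CPM in the unpaired 4. Neither did the summed interneuron markers, at 799.6 to 959.8 and 571 to 754.4 CPM in the same order. The part of Cst7 and of these markers in the Dusp8 and Dusp14 values was not tested. The division was read from the libraries and is no group of the study, so it has no test.

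**Figure D2:**
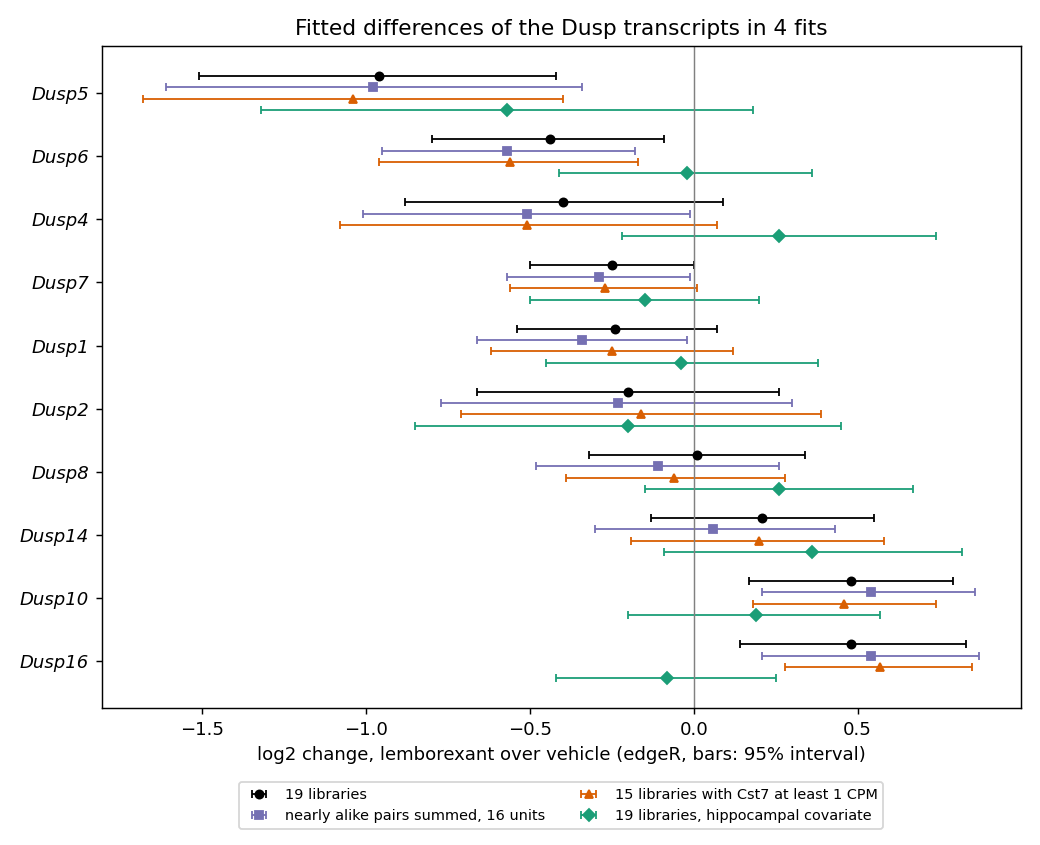
Each row is one Dusp transcript, and the horizontal axis is the log2 change of lemborexant over vehicle from edgeR with its 95% interval. Black circles use 19 libraries, purple squares 16 units with the nearly alike pairs summed, orange triangles the 15 libraries with Cst7 at least 1 CPM, and green diamonds 19 libraries with the hippocampal marker score as a covariate. Dusp5 is lowest in each fit, at -0.96 with 19 libraries and -0.57 with the covariate.

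The values of Dusp6 and Dusp16 were set beside the hippocampal marker sums, since these differed between the groups. The 4 lemborexant libraries with the lowest marker sums, lemborexant 4, 6, 7 and 9 at 59.5 to 67.1 CPM, had Dusp6 at 29.0 to 81.9 CPM, whereas lemborexant 1 and 10, at 237.7 and 241.2 CPM of the markers, had Dusp6 at 106.0 and 99.0 CPM. In the same 4 libraries Dusp16 was at 12.1 to 19.3 CPM, and in lemborexant 1 and 10 it was at 7.95 and 7.67 CPM. Within vehicle, libraries 4 and 5 had the highest marker sums (385.2 and 363.0 CPM), the highest Dusp6 (118.5 and 120.1 CPM) and the lowest Dusp16 (7.10 and 8.46 CPM). Their Dusp6 rank depends on the TMM factors. Without these it was at 101.6 and 102.6 CPM, below vehicle 2, 6, 8 and 9 at 106.2 to 113.6 CPM. In TPM it was at 49.2 and 46.4, low in the vehicle range of 44.9 to 66.6. Their Dusp16 was the lowest of the vehicle libraries in both of these measures too. Libraries with marker sums between the extremes did not all keep the order seen in CPM. Lemborexant 2, with 116.7 CPM of the markers, had Dusp6 at 63.1 CPM, below lemborexant 4 and 9 at 81.9 and 73.0 CPM. Vehicle 8 had the lowest marker sum of the vehicle libraries and 112.1 CPM of Dusp6, and vehicle 1, at 246.0 CPM of the markers, had 94.9 CPM.

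The hippocampal marker score ran from -1.51 to 0.51 in lemborexant libraries and from 0.39 to 0.80 in vehicle libraries. Only lemborexant 1 and 10 were inside the vehicle range. Score and treatment are thus largely confounded, and a fit with both cannot assign a smaller log2 change to either. With the score as a covariate in edgeR, the log2 change of Dusp6 was -0.02 ± 0.18 (SE; adjusted p = 0.957) and that of Dusp16 was -0.08 (adjusted p = 0.796). Dusp10 had 0.19 (adjusted p = 0.607) and Dusp4 had 0.26 ± 0.23 (SE; adjusted p = 0.569) in the same fit. Dusp5 had -0.57 (adjusted p = 0.44), with a 95% interval of -1.32 to 0.18. No gene of the 19105 passed in this fit, with 2340 at an unadjusted p under 0.05. In bulk cortex, fewer cells of a type and less RNA per cell cannot be told apart.

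**Figure D3:**
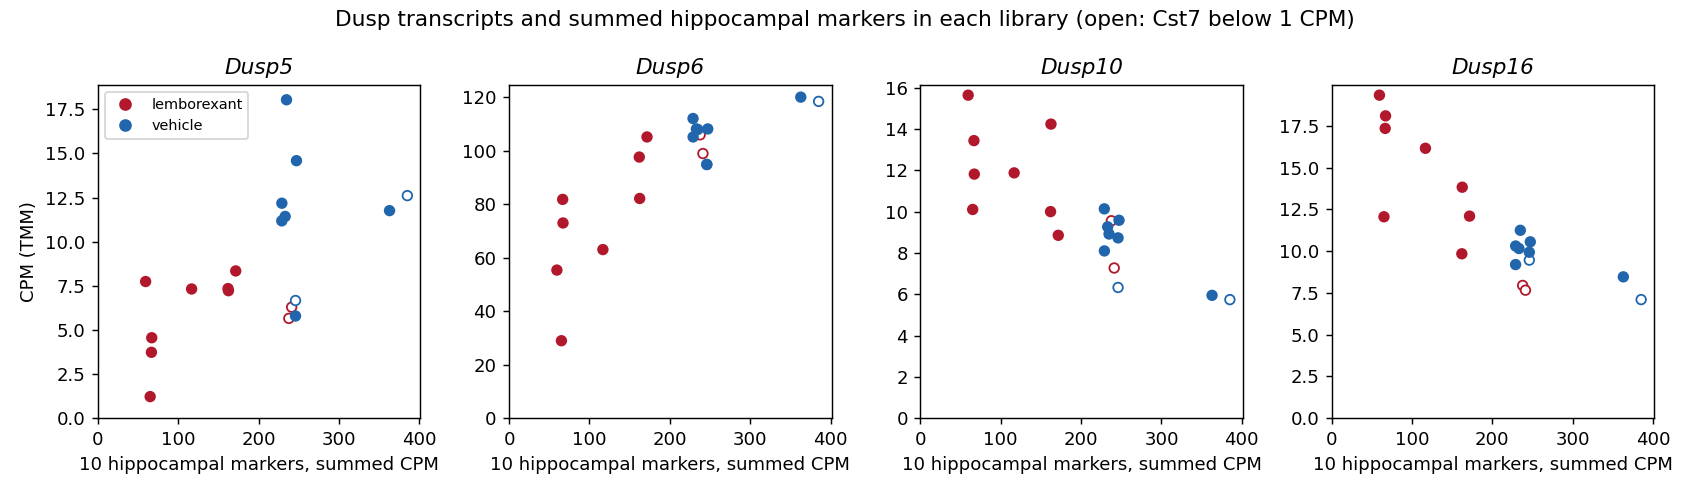
The 4 panels plot CPM of Dusp5, Dusp6, Dusp10 and Dusp16 (vertical axis) against the summed CPM of 10 hippocampal markers (horizontal axis) in 10 lemborexant (red) and 9 vehicle (blue) libraries, with open points for Cst7 below 1 CPM. Dusp6 is lowest, at 29.0 CPM, in a lemborexant library with 65.1 CPM of the markers, and Dusp16 is lowest, at 7.10 CPM, in the vehicle library with 385.2 CPM.

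The library numbers in the labels fall into the ranges 859 to 933 (3 lemborexant, 2 vehicle) and 1064 to 1602 (7 and 7 libraries). Dusp5 had a log2 change of -0.94 in the first range and -0.98 in the second (edgeR adjusted p = 0.677 and 0.106). Dusp6 had -0.27 and -0.53, and Dusp16 had 0.29 and 0.56, each in the same order of ranges. Dusp10 had 0.10 in the first range and 0.62 in the second (adjusted p = 1 and 0.072). The difference between ranges was not tested, and each of the 3 lemborexant libraries in the first range (8, 9 and 10) has its nearly alike partner in the second.

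The second comparison, a description with no test, set the 4 libraries with Cst7 below 1 CPM (3 units with the pairs summed) against the 15 with at least 1 CPM. It was made over both treatments, since each side holds libraries of both. For none of the 10 members were the sides apart, where 8.60% of all tested genes did not overlap, or 9.96% with the pairs summed. The summed level of 13 microglial and astrocytic reactivity markers was 600.6 to 753.6 CPM on the low side and at least 3545 CPM in every other library.

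Dusp8 was at 333.7 to 491.6 CPM with a median of 485.8 where Cst7 was below 1 CPM, and at 223.5 to 436.5 CPM with a median of 346.5 where it was at least 1 CPM. In 3 of the 4 libraries Dusp8 was above all 15 others, and vehicle 4 was the exception. Dusp14 was at 40.8 to 52.7 CPM with a median of 47.0 where Cst7 was below 1 CPM, and at 20.9 to 53.4 CPM with a median of 34.7 where it was at least 1 CPM. In CPM with TMM factors, all 4 low libraries had more Dusp14 than any vehicle library with Cst7, and lemborexant 3, 4, 8 and 9 had as much. Without the factors vehicle 4, at 37.76 CPM, was below vehicle 8 and 9 at 38.7 and 37.86 CPM.

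Dusp16 and Dusp10 had lower medians where Cst7 was below 1 CPM, with overlap in both genes. Dusp16 was at 7.10 to 9.47 CPM with a median of 7.81 where Cst7 was below 1 CPM, and at 8.46 to 19.3 CPM with a median of 11.3 where it was at least 1 CPM. Dusp10 was at 5.74 to 9.55 CPM with a median of 6.80 where Cst7 was below 1 CPM, and at 5.95 to 15.6 CPM with a median of 9.996 where it was at least 1 CPM. Lemborexant 1, below 1 CPM of Cst7, had 9.55 CPM of Dusp10, above 7 of the 9 vehicle libraries, and vehicle 5, with the highest Cst7 at 144 CPM, had 5.95 CPM. In both genes the lowest library of all was vehicle 4, which also had the highest hippocampal marker sum.

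The other 6 members overlapped as well. Dusp5 had medians of 6.48 and 7.74 CPM and Dusp6 of 102.5 and 97.7 CPM, each with the low side of Cst7 given before the other. Within lemborexant, the medians of Dusp6 were 102.5 CPM in the 2 libraries below 1 CPM of Cst7 and 77.4 CPM in the other 8, and within vehicle they were 106.7 and 108.2 CPM in the same order. The medians of Dusp1 were 24.85 and 24.4 CPM, those of Dusp7 31.1 and 31.6 CPM, those of Dusp4 4.18 and 4.73 CPM and those of Dusp2 0.826 and 0.869 CPM in the same order. Within each treatment the ranges of these 6 genes overlapped too.

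Within lemborexant, Dusp8 was at 480.6 and 491.6 CPM in the 2 libraries below 1 CPM of Cst7 and at 223.5 to 436.5 CPM in the other 8, and Dusp16 was at 7.67 and 7.95 CPM in the 2 and at 9.84 to 19.3 CPM in the 8. These 2 libraries are a nearly alike pair, and 35.3% of all genes did not overlap in this division. Within vehicle, Dusp14 was at 40.8 and 44.0 CPM in the 2 libraries below 1 CPM of Cst7. It was at 29.6 to 38.2 CPM in the other 7, and 17.2% of genes did not overlap in this division. That separation of Dusp14 depends on the TMM factors. Without them vehicle 4, at 37.76 CPM, was below vehicle 8 and 9. In TPM vehicle 4 was at 34.5, below vehicle 7, 8 and 9 at 37.7 to 42.88.

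**Figure D4:**
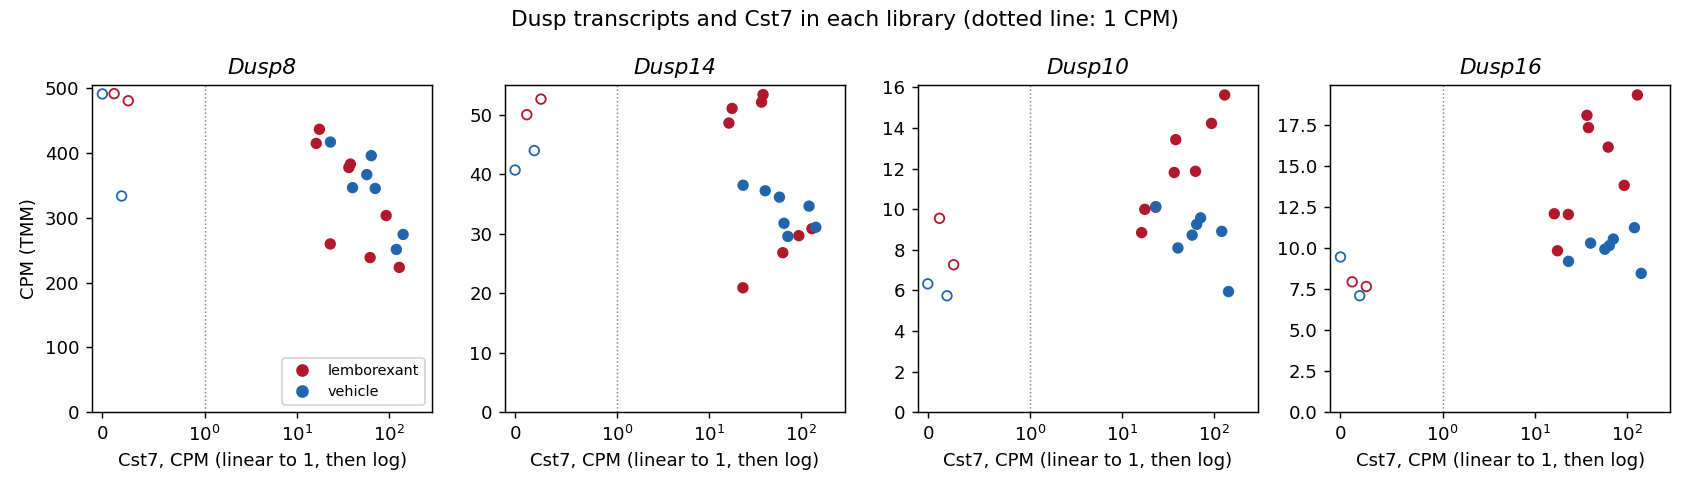
The 4 panels plot CPM of Dusp8, Dusp14, Dusp10 and Dusp16 (vertical axis) against CPM of Cst7 (horizontal axis, linear up to 1 and log above) in 10 lemborexant (red) and 9 vehicle (blue) libraries, with open points below 1 CPM of Cst7. Dusp8 is at 480.6 to 491.6 CPM in 3 of the 4 open points and at most 436.5 CPM in the filled points.

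Levels of different genes were compared per length, in the deposited TPM (transcript abundance scaled to gene length and library total). Dusp8 was the most abundant member, at 129.4 ± 39.3 TPM in lemborexant libraries and 112.1 ± 36.7 TPM in vehicle libraries (SD, n = 10 and 9, as for the TPM values that follow). It was above Dusp6, the next by overall mean, in all 19 libraries. Dusp6 averaged 48.2 ± 16.7 TPM and Dusp14 47.6 ± 16.6 TPM in lemborexant libraries, and in vehicle libraries they averaged 55.0 ± 7.47 and 34.8 ± 7.40 TPM. Dusp6 was above Dusp14 in 5 of 10 lemborexant and 9 of 9 vehicle libraries, so their order did not hold beyond the spread among lemborexant libraries.

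Dusp7 averaged 22.3 ± 4.59 TPM in lemborexant and 22.4 ± 1.69 TPM in vehicle libraries, and Dusp1 averaged 19.9 ± 5.91 TPM in lemborexant and 19.7 ± 3.85 TPM in vehicle libraries. These neighbours did not differ beyond their spread, with Dusp7 above Dusp1 in 13 of 19 libraries. Dusp1 was above Dusp5 in all 19. Dusp16 averaged 4.42 ± 1.23 TPM in lemborexant and 2.75 ± 0.599 TPM in vehicle libraries, and Dusp4 2.17 ± 1.05 TPM in lemborexant and 2.47 ± 0.661 TPM in vehicle libraries. Dusp16 was above Dusp4 in 14 of 19 libraries. Dusp2 was the lowest at 0.998 ± 0.154 TPM in lemborexant and 0.936 ± 0.264 TPM in vehicle libraries.

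Dusp10 and Dusp5 stood in opposite order in the treatments. Dusp10 averaged 6.30 ± 1.09 TPM in lemborexant and 4.03 ± 1.22 TPM in vehicle libraries, and Dusp5 averaged 4.06 ± 1.46 TPM in lemborexant and 6.79 ± 1.94 TPM in vehicle libraries. Dusp10 was above Dusp5 in 8 of 10 lemborexant libraries, all but 3 and 10, and in 1 of 9 vehicle libraries, vehicle 7. The pair was singled out after its values were seen and has no test.

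**Figure D5:**
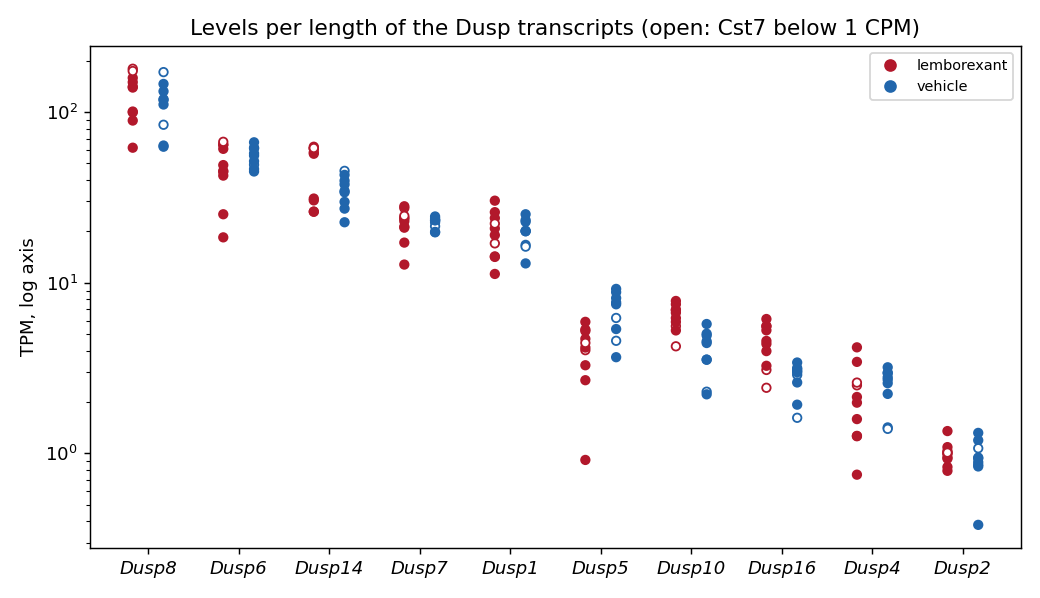
TPM of each Dusp transcript on a log axis, ordered by the mean over all libraries, with a point for each of 10 lemborexant (red, left) and 9 vehicle (blue, right) libraries and open points for Cst7 below 1 CPM. Dusp8 is highest, at 129.4 TPM on average in lemborexant libraries, and Dusp2 is lowest, at 0.998 TPM.

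The genes whose log2 CPM was most like that of 3 members over the 16 units were found among 11431 protein-coding genes. These are descriptions over units that differ in treatment and tissue makeup, and the part of either in the likeness was not tested. Closest to Dusp5 were Dgkz, a diacylglycerol kinase gene (Pearson's r = 0.90, Spearman's rho = 0.74), the activity-induced nuclear receptor gene Nr4a3 (0.89 and 0.80) and Hapln1, which encodes a link protein of the extracellular matrix (0.89 and 0.67). Closest to Dusp10 were Crispld2 (r = 0.92, rho = 0.92), Mtus1 (0.91 and 0.94) and Tmod1, a tropomodulin gene (0.91 and 0.80). Closest to Dusp16 were the RNA-binding protein gene Msi1 (r = 0.93, rho = 0.95), Megf10, an engulfment receptor gene of astrocytes (0.93 and 0.92), and Man1c1, a mannosidase gene (0.92 and 0.90).

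The other genes of the pathway were read from lists beside the members. Of 12 further dual-specificity phosphatase genes 11 were tested and 0 passed, with a median log2 change of 0.09. There were 3 at an unadjusted p under 0.05, where 25.7% of all tested genes were. Dusp26, a phosphatase gene of neuroendocrine tissue, was at 82.4 ± 19.8 CPM in lemborexant and 60.5 ± 9.57 CPM in vehicle libraries (SD, n = 10 and 9; log2 change 0.45, edgeR adjusted p = 0.0581). Dusp19 had a log2 change of -0.24 (adjusted p = 0.0912). Of the 3 tyrosine phosphatases that also act on MAP kinases 0 passed and 0 had an unadjusted p under 0.05. Ptprr had -0.12 and Ptpn7 0.30 (edgeR adjusted p = 0.593 and 0.738).

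Among 22 genes of the ERK cascade 0 passed and the median log2 change was -0.04. An unadjusted p under 0.05 was found for 10 of the 22, against 25.7% of all tested genes. The ERK kinase gene Map2k1 had -0.36 ± 0.10 and the scaffold gene Ksr1 had -0.51 ± 0.15 (SE; edgeR adjusted p = 0.0602 and 0.0606). Among 24 genes of the JNK and p38 cascades 1 rose, 0 fell and the median was 0.03, where 0.953% of all tested genes rose and 1.65% fell. The gene that rose was Map3k5, the stress-activated kinase upstream of both branches, at 13.1 ± 1.55 CPM in lemborexant and 10.2 ± 0.995 CPM in vehicle libraries (SD, n = 10 and 9; log2 change 0.35, edgeR adjusted p = 0.0363, or 0.101 with the pairs summed). Of 9 feedback inhibitors of ERK signalling 8 were tested and 0 passed or had an unadjusted p under 0.05, with a median of -0.14. Spred2 had -0.21 and Spry2 -0.23 (adjusted p = 0.235 and 0.254).

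Transcripts that respond to ERK or to neuronal activity were read from 2 lists, beside 46.4% of all tested genes with a negative log2 change and 1.65% called lower. Of 13 ERK-responsive genes 12 were tested, 1 fell, 0 rose, and 10 of the 12 log2 changes were negative, with a median of -0.12. The ETS factor gene Etv4 was the 1, at 2.38 ± 0.374 CPM in lemborexant and 3.39 ± 0.600 CPM in vehicle libraries (SD, n = 10 and 9; log2 change -0.51, edgeR adjusted p = 0.0457, or 0.1 with the pairs summed). Of 18 activity-regulated genes 2 fell, 0 rose, and 16 had a negative log2 change, with a median of -0.41 against 0.03 over all genes. Nr4a3 was at 8.84 ± 2.73 CPM in lemborexant and 16.6 ± 2.31 CPM in vehicle libraries (SD, n = 10 and 9; log2 change -0.91, edgeR adjusted p = 0.0228, or 0.0711 with the pairs summed). Egr4, an early growth response factor gene, was at 1.30 ± 0.532 CPM in lemborexant and 2.91 ± 1.16 CPM in vehicle libraries (SD, n = 10 and 9; log2 change -1.16, edgeR adjusted p = 0.0377, or 0.0834 with the pairs summed). With the pairs summed 0 genes of 19224 passed, with 4102 at an unadjusted p under 0.05. With the hippocampal score as a covariate, where 0 genes passed, the log2 changes were 0.20 ± 0.11 for Map3k5, -0.41 ± 0.19 for Etv4, -0.45 ± 0.19 for Nr4a3 and -0.90 ± 0.41 for Egr4 (SE; edgeR adjusted p = 0.403 to 0.407).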

How the data were processed

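RNA of frozen cortex was extracted with TRIzol, chloroform and RNeasy columns and made into libraries by the Takara SMARTer Ultra Low method, per the labels' protocols. The submitters' processing notes name bcl2fastq, DRAGEN 3.9.3-8 and GRCm38; annotation release and strand setting: not given in the sources used here. For each gene the authors deposited, per the file headers, an estimated count, which may divide reads between genes, and a TPM value. Counts were rounded for the count tests, and TPM was used for levels per length and for 2 alternatives.

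Treatments were compared by the quasi-likelihood test of edgeR 4.0.16 (robust, TMM factors, edgeR's expression filter, two-sided, Benjamini-Hochberg adjustment over 19105 genes, threshold 0.05; R 4.3.3). Alternatives used RLE factors, no filter, DESeq2 1.42.0, limma 3.58.1 (voom with quality weights; log2(TPM + 1) and log2(TPM + 0.1) at a mean of at least 1 TPM), the library number range, the nearly alike pairs summed (chi-square per degree of freedom under 5, genes of 20 reads or more in a pair), libraries left out and a hippocampal score (mean centred log2 CPM, prior count 2) as a covariate. Symbols and coordinates came from GENCODE for GRCm38, which held a symbol for 55141 of 55487 identifiers, and sequences from RefSeq. The design text speaks of triplicates; the labels give 10 and 9 libraries and were followed. Replicates were numbered within groups, since the labels give only library numbers.

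The members, lists, alternatives and naming rule were chosen with earlier results of these data known. Named beside the members are genes of each list past the threshold (at most 3), otherwise the 2 with the smallest p, and for the 3 members with the smallest p the 3 protein-coding genes (mean of at least 5 CPM) with the highest r. Spry3 was not analysed here, and Dusp9 and Fosl1 did not pass the expression filter. The edgeR test was run on simulated counts of 10 and 9 libraries. It recovered 56% of 1.5-fold and 78% of 2-fold changes, and 6 of 140 calls were false. The simulated libraries were drawn independently, without nearly alike pairs or differences of tissue makeup, so the check does not cover these features of the data. At these depths the spread between libraries, not counting, limits the comparisons of all members but Dusp2.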

Additional observations from a re-analysis of the deposited data

Results flagged for a closer look

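Dusp7 in lemborexant 7 was at 14.8 CPM, while the nearest other lemborexant library was at 24.6 CPM. This gap was 0.513 of the range of the 10 lemborexant libraries, above the 95% critical value of 0.466 for 10 samples. The values of 10 genes in 2 groups were looked at in this way, and chance marks about 1 group in 20. The critical value counts the nearly alike libraries as separate samples. The flag also depends on the TMM factors. Without them Dusp7 was at 16.98 CPM in lemborexant 7, 24.77 CPM in the nearest and 34.48 CPM in the highest lemborexant library. In TPM these were at 12.78, 17.19 and 28.07. In both measures the gap was under the critical value. Lemborexant 7 also had the highest summed levels of hypothalamic and thalamic markers, 2516 and 584.9 CPM. Its summed level of cortical excitatory markers, 200.9 CPM, was the lowest of all libraries. The part of these marker levels in the Dusp7 value was not tested.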

How the results depend on the processing

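The number of members past the threshold was 0 with all 19 libraries and 1 with RLE factors (Dusp5, adjusted p = 0.048), 2 with DESeq2 (Dusp5 and Dusp10, 0.00911 and 0.0305), 1 with voom (Dusp5, 0.0152), 1 without the libraries below 1 CPM of Cst7 (Dusp16) and 1 without lemborexant 7 and vehicle 7 (Dusp5). It was 0 to 2 with each library left out and 0 to 3 with the pairs summed and each unit left out, the 3 being Dusp6, Dusp10 and Dusp16 without lemborexant 1 and 10 (adjusted p = 0.0493, 0.0388 and 0.0264). The signs of Dusp5, Dusp6, Dusp7 and Dusp10 held in every alternative, but some of the log2 changes were close to 0. Dusp6 had -0.02 with the hippocampal covariate. On log2(TPM + 1) Dusp5 had -0.65, Dusp6 -0.27 and Dusp7 -0.03 (limma adjusted p = 0.0795, 0.338 and 0.863). Dusp1 had -0.02 there (adjusted p = 0.949). The sign turned for Dusp1 (0.07) and Dusp2 (0.69) in the range 859 to 933, for Dusp2 with voom (0.12), and for Dusp4 (0.26) and Dusp16 (-0.08) with the hippocampal covariate. Dusp8 turned to -0.02 with the range as a covariate, -0.08 in the range 1064 to 1602, -0.11 with the pairs summed, and -0.06 without the libraries low in Cst7 (-0.16 with the pairs summed too). With each library left out Dusp8 had -0.05 to 0.08, and with the pairs summed and each unit left out -0.23 to -0.03 (among them -0.18, -0.15, -0.12, -0.09 and -0.07), while Dusp14 had -0.04 to 0.16. The cause was not tested.

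Over all genes 498 were called (182 higher, 316 lower), and 514 with RLE factors, 254 with no filter, 1879 with DESeq2, 2251 with voom, 294 with the range as a covariate, 522 without the libraries low in Cst7 (0 with the pairs summed too), 307 without lemborexant 7 and vehicle 7, 31 to 1274 with each library left out and 0 to 818 with the pairs summed and each unit left out. There were 8 in the range 1064 to 1602, and 0 in the range 859 to 933 (910 at an unadjusted p under 0.05), with the pairs summed (4102) and with the hippocampal covariate (2340). On log2(TPM + 1) there were 118 (88 higher, 30 lower) and on log2(TPM + 0.1) 26 (17 higher, 9 lower), where the median of all genes was 0.18 and 0.20. Dusp2 was under the TPM minimum. No paired analysis was possible because the labels give no replicate numbers that the groups share. At about 1 CPM, Dusp2 is limited by depth.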
